A study of Homo sapiens with 4 samples.

Results

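The RNA exosome subunit genes EXOSC1 to EXOSC10 were taken as all probe sets that the array's gene annotation assigns to 1 of these 10 names and to no other gene. The rule found 18 probe sets for 10 of 10 genes, among 44988 probe sets for 18132 genes in all. The members were chosen by name, with their log2 signals across the 4 conditions already in view, so the values below are descriptions. U87MG, an established human glioblastoma cell line, was treated for 24 h with DMSO (the control), with mycophenolic acid (MPA) at 10 µM, with guanosine at 100 µM, or with both compounds at these doses. All 4 conditions are the same line in the same serum-containing medium, and each was read on 1 PrimeView array, a 3'-biased mRNA array, so there were no replicates, no p-value is given and every difference is between 2 arrays. MPA inhibits IMP dehydrogenase, the enzyme of guanine nucleotide synthesis named in the study's title, while salvage of guanosine yields the same nucleotides by a route that bypasses it. The comparisons thus ask how MPA altered each mRNA and whether added guanosine altered that response.

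The RNA exosome is a barrel-shaped complex that degrades and trims RNA from its 3' end. Its ring is built from EXOSC4 to EXOSC9, which resemble bacterial RNases but have lost catalytic activity in human cells, and its cap from EXOSC1, EXOSC2 and EXOSC3, which bind RNA at the entry of the channel. The cutting is done by associated enzymes: DIS3 at the base of the ring, and EXOSC10 in the nucleus, where it is enriched in the nucleolus. There the complex trims precursors of ribosomal RNA, and elsewhere in the nucleus and cytoplasm it removes faulty or short-lived transcripts.

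With MPA alone, 8 of the 10 subunit mRNAs were lower than in the control and 2, EXOSC6 and EXOSC1, were higher. The median log2 difference of the 10 was -0.38, beside 0.0024 over all 10951 genes compared, of which 49.7% were lower. EXOSC9 was the furthest below the control, 1.93-fold lower, and EXOSC8 was 1.56-fold lower. These were 2 of 10 members at least 1.5-fold lower, where the share of all genes was 7.52%. At least 1.5-fold higher were 0 members, where the share was 5.41%. EXOSC8 did not reach 1.5-fold after cyclic loess (log2 -0.57) or with the guanosine array as the control (-0.50), and EXOSC9 did in both. The count of lower members rose to 3 with median centring, where EXOSC4 was at -0.60. It was also 3 with medians of probe sets, where EXOSC2 was at -0.61. No member was 2-fold different (0 in either direction), beside 1.73% of genes higher and 1.42% lower by that much. With guanosine present, adding MPA left every member within 0.12 on the log2 scale of the guanosine array. Small differences were general there: over all 10599 genes the log2 SD was 0.098, with 0 genes 1.5-fold higher and 2 lower. Because each array reads RNA from a whole culture, fewer transcripts per cell and fewer cells that carry them cannot be told apart.

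**Figure D1:**
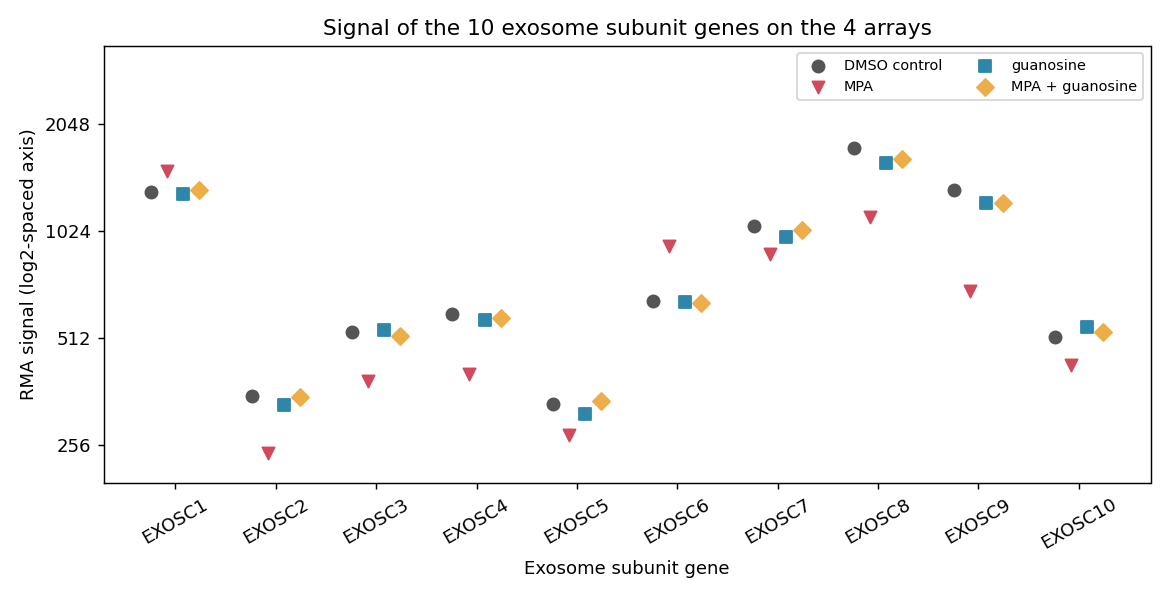
RMA signal (vertical, log2-spaced axis) of each exosome subunit gene (horizontal) on the 4 arrays, 1 point per array. The MPA point is the lowest of the 4 for 8 genes and the highest for EXOSC1 and EXOSC6.

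The start-site regions of EXOSC9, EXOSC8 and EXOSC2, all lower with MPA, and of EXOSC6, which was higher, are shown because these mRNAs differed by unequal amounts and in both directions. The sequences are from RefSeq on GRCh38.p14, from 250 bases before to 50 after the annotated start, and 8 of the 10 members had an entry in the table used. EXOSC4, which differed more than EXOSC2 and EXOSC6, and EXOSC1 had no region analysed here. EXOSC9 lies at chr4:121801073-121801372 (plus strand), EXOSC8 at chr13:37000536-37000835 (plus strand), EXOSC2 at chr9:130693510-130693809 (plus strand) and EXOSC6 at chr16:70251891-70252190 (minus strand). Capitals mark matches on either strand to any of 6 searched motifs: the E-box CACGTG, the ETS core CCGGAAG, the palindromic NRF1 motif, the YY1 motif AAGATGGCG, the E2F motif TTTGGCGC and the TATA box TATAAA.
EXOSC9: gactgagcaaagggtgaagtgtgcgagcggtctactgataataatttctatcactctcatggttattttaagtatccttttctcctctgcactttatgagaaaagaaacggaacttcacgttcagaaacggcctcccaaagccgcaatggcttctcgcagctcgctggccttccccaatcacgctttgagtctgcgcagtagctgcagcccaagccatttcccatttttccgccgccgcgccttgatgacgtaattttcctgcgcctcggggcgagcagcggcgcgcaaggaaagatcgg
EXOSC8: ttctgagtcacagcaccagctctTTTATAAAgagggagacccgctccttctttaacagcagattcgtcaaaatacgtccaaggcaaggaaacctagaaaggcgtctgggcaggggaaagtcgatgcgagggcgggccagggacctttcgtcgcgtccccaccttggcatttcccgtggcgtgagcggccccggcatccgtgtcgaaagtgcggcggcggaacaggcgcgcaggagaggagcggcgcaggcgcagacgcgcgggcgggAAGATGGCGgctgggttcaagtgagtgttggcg
EXOSC2: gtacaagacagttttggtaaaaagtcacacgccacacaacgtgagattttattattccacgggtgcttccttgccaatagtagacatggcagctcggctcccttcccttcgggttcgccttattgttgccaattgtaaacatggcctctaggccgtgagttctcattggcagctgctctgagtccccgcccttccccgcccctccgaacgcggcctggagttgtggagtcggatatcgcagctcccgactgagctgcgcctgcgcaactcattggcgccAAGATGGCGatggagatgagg
EXOSC6: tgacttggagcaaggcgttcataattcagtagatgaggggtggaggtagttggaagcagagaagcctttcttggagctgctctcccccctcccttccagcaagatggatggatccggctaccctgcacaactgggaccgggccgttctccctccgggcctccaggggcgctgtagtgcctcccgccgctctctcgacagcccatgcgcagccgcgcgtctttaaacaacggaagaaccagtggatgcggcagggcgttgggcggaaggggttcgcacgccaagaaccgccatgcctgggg
The YY1 motif was found just after the start site in EXOSC8 and EXOSC2, 2 of 8 members, beside 1.75% of 35116 regions of the same length. EXOSC8 also held TATAAA on both strands over 200 bases before its start, in 1 of 8 members beside 11.5% of regions. EXOSC5 (chr19:41397310-41397609, minus strand) was alone among the 8 in holding the E-box, which 7.26% of regions held. The ETS core, NRF1 and E2F motifs were found in 0 of 8 members, beside 10.3%, 1.24% and 0.652% of regions. EXOSC9 and EXOSC6, the furthest members in opposite directions, held none of the 6 letter strings in this window. The same was true of EXOSC3, EXOSC7 and EXOSC10. A match is a description of the letters and not a measured site.

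Among the ring subunits, EXOSC9 pairs with EXOSC4, EXOSC8 with EXOSC5, and EXOSC7 with EXOSC6 in the assembled complex. EXOSC9, an autoantigen of polymyositis-scleroderma overlap, had a signal of 1331 in the control, 692 with MPA, 1226 with guanosine and 1230 with both compounds. The MPA array thus stood apart from the other 3, and its log2 difference from the control, -0.95, had 199 of the 10951 genes below it. Its other probe sets gave -0.78 and -0.72, so that all 3 probe sets of this gene were at least 1.5-fold lower. The reading of -0.78 is from an _x_at probe set, a kind used for a gene only where there was no other. EXOSC4, its partner, had signals of 598 in the control, 404 with MPA, 573 with guanosine and 581 with both. Its log2 difference with MPA was -0.56, or 1.48-fold lower, on its only probe set.

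EXOSC8 had a signal of 1754 in the control, 1124 with MPA, 1593 with guanosine and 1630 with both. Here too MPA was the low array, at a log2 difference of -0.64 from the control, while guanosine and both compounds were also below the control, at -0.14 and -0.11. The distance of 0.14 between its control and guanosine arrays was the widest among the 3 arrays other than MPA for any member. Its partner EXOSC5 had a smaller MPA difference of -0.30, with signals of 334 in the control, 272 with MPA, 313 with guanosine and 340 with both. EXOSC8 and EXOSC5 are each read by 1 probe set, and RefSeq lists a pseudogene of EXOSC8 whose transcripts could share its probes.

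The pair of EXOSC7 and EXOSC6 lay on opposite sides. EXOSC7 had signals of 1055 in the control, 879 with MPA, 982 with guanosine and 1030 with both, a log2 difference with MPA of -0.26. EXOSC6 had signals of 652 in the control, 929 with MPA, 646 with guanosine and 640 with both, and was thus 1.42-fold higher with MPA (0.51). Without MPA in the medium or with guanosine beside it, EXOSC6 varied by 0.03 on the log2 scale over the 3 arrays, the narrowest range of any member. Of all genes compared, 749 had a higher MPA difference than EXOSC6. It is read by 1 probe set, so no second reading of this difference was to be had. The array's 6 background probe sets of highest GC content (20 or more G and C bases per probe) all read above the control with MPA, by 0.22 to 0.32, and the GC content of the EXOSC6 probes was not checked. The part of this background in the EXOSC6 value was not tested.

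**Figure D2:**
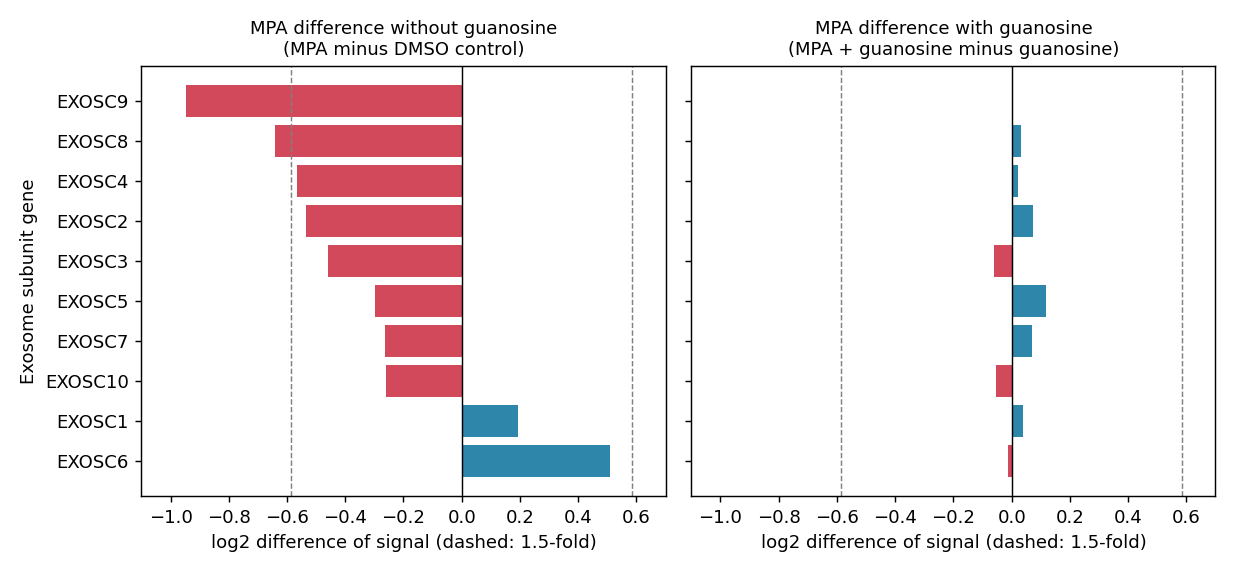
Log2 difference of signal (horizontal) made by MPA in each subunit gene (vertical), without guanosine on the left and with guanosine on the right; each bar is a difference of 2 arrays and the dashed lines mark 1.5-fold. On the left 8 bars point down to -0.95 and 2 point up to 0.51, and on the right all lie between -0.06 and 0.12.

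In the cap, EXOSC2 and EXOSC3 were lower with MPA and EXOSC1 was higher. EXOSC2 had signals of 352 in the control, 243 with MPA, 332 with guanosine and 350 with both. Its log2 difference with MPA was -0.54 (1.45-fold lower), and -0.68 on its second probe set, which is also an _x_at one. EXOSC3, mutated in a form of pontocerebellar hypoplasia, had signals of 533 in the control, 388 with MPA, 540 with guanosine and 518 with both, a difference of -0.46. Both genes therefore showed a single low array, MPA. The other probe sets of EXOSC3 were below the dim-signal floor of 63.0, the median of all non-control values, on all 4 arrays, and differed by -0.67 and 0.26. RefSeq lists pseudogenes of EXOSC3 too. EXOSC1 had signals of 1318 in the control, 1508 with MPA, 1304 with guanosine and 1339 with both, and was 1.14-fold higher with MPA. Its log2 difference of 0.19 was the smallest of the 10, at percentile 74.0 of all genes compared, and its second probe set was below the floor on all 4 arrays.

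EXOSC10, the nuclear ribonuclease of the complex, had signals of 515 in the control, 429 with MPA, 551 with guanosine and 530 with both. MPA was again the low array, with a log2 difference of -0.26 from the control, and the guanosine array was the highest. The dimmer probe set of EXOSC10 gave signals of 107, 81.3, 99.8 and 93.3 in the same order, a difference with MPA of -0.39. On that probe set the control was the highest array, so the order of control and guanosine differed between the 2 probe sets of EXOSC10.

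Of the 18 probe sets, 14 reached the floor on at least 1 array. The 4 of these that did not stand for their gene had the same sign with MPA as the one that did, in EXOSC2, EXOSC9 and EXOSC10. Below the floor were 4 probe sets, of EXOSC1, EXOSC3 and EXOSC7, with differences on both sides of 0. One more probe set, listed with EXOSC7 and another gene, entered no gene.

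**Figure D3:**
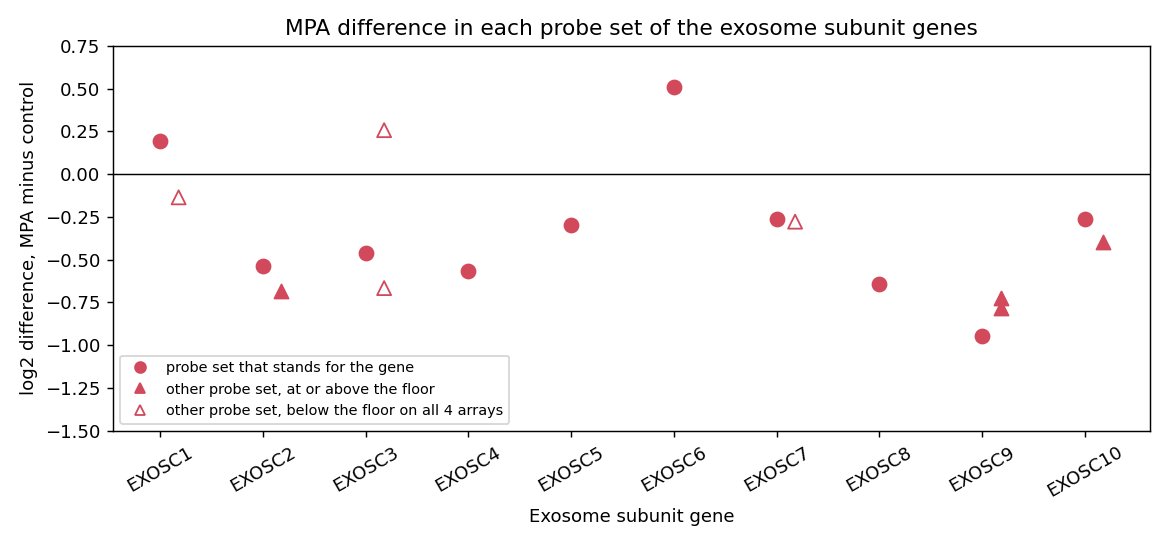
Log2 difference with MPA against the control (vertical) in each of the 18 probe sets of the subunit genes (horizontal); filled circles stand for the gene, filled triangles are other probe sets at or above the floor, and open triangles were below it on all 4 arrays. The 3 filled readings of EXOSC9 lie between -0.95 and -0.72.

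For all 10 members the MPA array lay outside the other 3 arrays by more than those 3 differed among themselves. It was the lowest in 8 members, beside 42% of 11019 genes, and below the others by more than their range in the same 8, beside 27.8%. It was the highest in 2 members, beside 40.8% of genes, and by more than the range in the same 2, beside 24%. The gap to the nearest other array was 18.8 times that range for EXOSC6, the most of any member, and next 8.26 times for EXOSC4. It was smallest against the range for EXOSC7, at 1.56 times, and EXOSC5, at 1.75 times. The 3 other arrays are different treatments and not replicates, so this range also holds any effect of guanosine.

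Array controls differed between the arrays as well, and not on the MPA array only. All 12 probe sets for poly-A spike-ins, bacterial transcripts mixed into each RNA sample as labelling controls, read lower with MPA than in the control (median -0.29). All 9 probe sets for hybridisation spikes were lower too, by less (median -0.07, from -0.17 to -0.03). The poly-A spikes were higher than the control with guanosine, by a median of 0.22, and with both compounds, by 0.27. The 3 probe sets for 28S ribosomal RNA had medians against the control of -0.51 with MPA, -0.76 with guanosine and -0.79 with both compounds. Those 3 were all below the control with guanosine and with both, while with MPA 2 were lower and 1 higher. The part of these control readings in the members' differences was not tested. After a further cyclic loess normalisation the members' median with MPA was -0.31. The 3' minus 5' log2 value of ACTB, a reading of RNA integrity, lay between 1.72 and 1.89 on the 4 arrays. Of 7 glioma and mesenchymal markers, 6 were above the floor on all arrays and SOX2 on none. The genes CDKN2A and MTAP, which this line has lost, were below it throughout. The leukocyte and endothelial markers, 5 in all, were also below the floor on every array. Of 4 astrocyte markers GFAP alone was above it, on all arrays, and of 2 neuron markers SYT1 was above it on all and RBFOX3 on the MPA array only. The summed neuron markers were 155 with MPA and 131 to 141 on the other arrays. The summed epithelial markers were 122 with MPA and 67.3 to 72.2 on the other arrays, with EPCAM above the floor on the MPA array only, and the part of these markers in the results was not tested.

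Guanosine alone left the exosome genes near the control. The median of the 10 was -0.07, beside -0.0009 over all 10663 genes, and the members lay between -0.14 (EXOSC8) and 0.10 (EXOSC10). A lower value was found in 8 of 10 members, where 50.2% of all genes were lower. None of the members (0) passed 1.5-fold in either direction, where 0.366% of genes were higher and 0.131% lower by that much. All 6 ring subunits were below the control, from -0.14 in EXOSC8 to -0.01 in EXOSC6. Of the cap subunits, EXOSC3 was at 0.02, EXOSC1 at -0.02 and EXOSC2 at -0.08.

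MPA in the presence of guanosine was read against guanosine alone, so that no array is common to this and the first comparison. The members had a median of 0.03 beside 0.02 over 10599 genes, and 3 of 10 were lower beside 40.8%. EXOSC5 was highest at 0.12 and EXOSC3 lowest at -0.06. EXOSC9, the member furthest below the control with MPA alone, differed by 0.0039, and EXOSC6 by -0.01. At 1.5-fold, 0 members were called in either direction, beside 0% of genes higher and 0.0189% lower.

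Guanosine added to MPA was read against MPA alone, which shares the MPA array with the first comparison, so the signs of these differences are not a separate observation. EXOSC9 was 1.78-fold higher with guanosine added and was the only member of 10 past 1.5-fold, beside 8.82% of 10956 genes higher by that much. EXOSC8 was 1.45-fold higher, EXOSC2 and EXOSC4 both 1.44-fold higher, and EXOSC3 1.34-fold higher. EXOSC6 was 1.45-fold lower and EXOSC1 1.13-fold lower, with 0 members past 1.5-fold lower beside 4.77% of genes. The direction for EXOSC1 depended on the probe set rule, its log2 difference being -0.17 here and 0.17 with medians of probe sets. In all, 8 of 10 members were higher, beside 52% of genes, and the median was 0.37 beside 0.02. Against the control array, the cultures with both compounds had members between -0.11 (EXOSC9 and EXOSC8) and 0.04 (EXOSC10). There 7 of 10 were lower, beside 45.5% of 10672 genes, and 0 passed 1.5-fold, beside 0.469% of genes higher and 0.169% lower. The number lower depended on the processing. It was 5 with median centring, 9 after cyclic loess, and 6 with medians of probe sets, where EXOSC3 had no value. The share of all genes lower under these settings is not given here.

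The enzymes and cofactors that work with the exosome lay on both sides of the control. Of 25 listed genes 24 were measured, MPHOSPH6 is not analysed here, and 23 reached the floor in MPA against control. Of these 23, 14 were lower (49.7% of all genes were) and 9 higher, with a median of -0.14. Only 1 was at least 1.5-fold lower, beside 7.52% of all genes, and 0 were higher by that much, beside 5.41%. DIS3, the main exonuclease and endonuclease of the complex, had signals of 470.0 in the control, 365 with MPA, 506 with guanosine and 485 with both. MPA was the low array for this gene, as for 5 of the 6 ring subunits, with a log2 difference of -0.37. DIS3L, its cytoplasmic relative, was below the floor on all 4 arrays.

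Among nuclear cofactors, MTREX, the helicase that feeds RNA into the exosome, had signals of 673 in the control, 464 with MPA, 654 with guanosine and 623 with both, a difference with MPA of -0.53. ZC3H18, which links the cap-binding complex to the exosome, was the lowest of the list at -0.66. TENT4A, a non-canonical poly(A) polymerase, was at -0.49, and C1D, which binds EXOSC10, at -0.13. ZFC3H1, the scaffold of the poly(A) tail exosome targeting connection, was higher at 0.48. In the cytoplasm, the SKI complex threads mRNA into the exosome. Its helicase SKIC2 had signals of 161 in the control, 228 with MPA, 161 with guanosine and 164 with both, a difference of 0.51, and its scaffold SKIC3 was at 0.35. SKIC2 was thus the highest of the partners and, like EXOSC6, had 1 array above the others. SKIC3 was also higher with guanosine alone, by 0.33.

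Of other RNA trimming and decay enzymes, 17 of 18 measured genes reached the floor, 11 lower and 6 higher with MPA, beside 49.7% of all genes lower, with a median of -0.17. TOE1, which trims the 3' ends of small nuclear RNAs, was lowest, with signals of 318 in the control and 159 with MPA, and was the only gene of the list 2-fold lower. ISG20L2, a nucleolar exonuclease of ribosomal RNA processing, was at -0.79 and ERI1, which trims histone mRNA and ribosomal RNA ends, at -0.67. These were the 3 of 17 genes at least 1.5-fold lower, beside 7.52% of all genes, and 0 were higher by that much, beside 5.41%. The deadenylase subunit PAN2 was highest at 0.48.

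Other complexes of many subunits gave a scale for the members' median of -0.38. RNA polymerase I, which makes the ribosomal RNA precursor that the exosome trims, had 10 of 13 subunits lower, beside 49.7% of all genes, and a median of -0.28. Of the 13, 3 were at least 1.5-fold lower, beside 7.52% of all genes, and 1 was 2-fold lower, beside 1.42%. The 3 higher subunits all have POLR2 names. Every subunit with a POLR1 name was lower, from -0.06 to -1.23, so the median of -0.28 mixes both kinds. POLR1E, POLR1D, POLR1A, POLR1C and POLR1H, at -1.23, -0.67, -0.59, -0.49 and -0.41, were further below the control than the exosome median of -0.38. POLR1F, POLR1G and POLR1B, at -0.34, -0.20 and -0.06, were nearer to the control. POLR1E was lowest there at -1.23 and POLR2E, a subunit shared with the other nuclear polymerases, highest at 0.16. The proteasome core, a ring-shaped protease, had a median of -0.02 over 13 measured subunits, between -0.20 (PSMA7) and 0.19 (PSMB2). Of these 13, 7 were lower, beside the same 49.7% of all genes, and PSMA6 is not analysed here. All 10 exosome subunits but EXOSC1 had a larger MPA difference, in size, than any of these 13. The subunits of each list share the same pair of arrays, and the differences between lists were not tested.

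**Figure D4:**
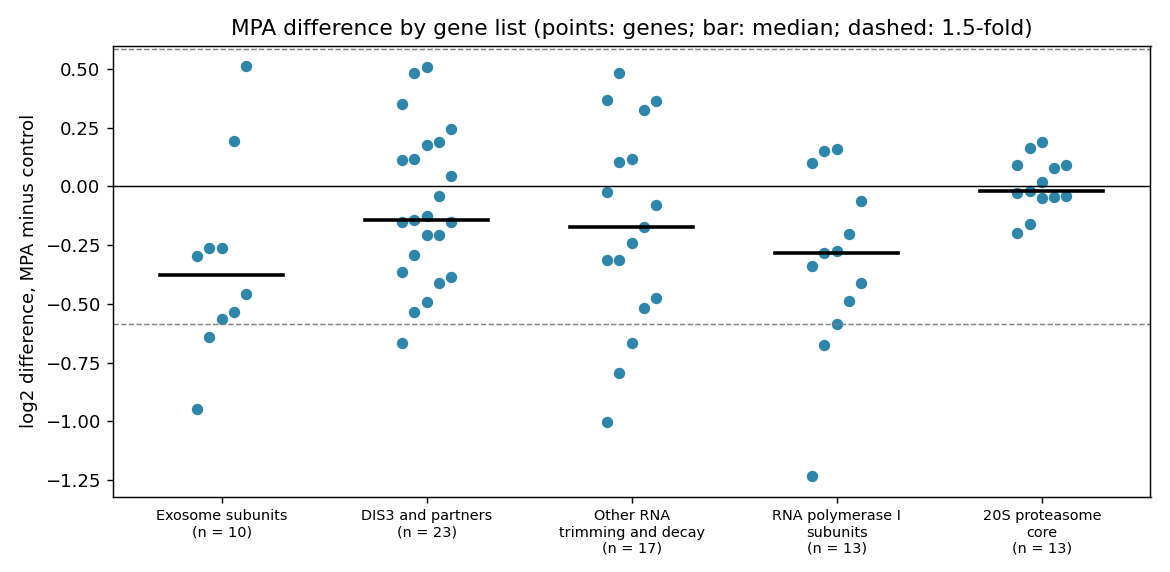
Log2 difference with MPA against the control (vertical) of the genes in each list (horizontal); points are genes at or above the floor, thick bars are medians and dashed lines mark 1.5-fold. The exosome median is -0.38, that of its partners -0.14, that of RNA polymerase I subunits -0.28 and that of the proteasome core -0.02. The RNA polymerase I list holds subunits with both POLR1 and POLR2 names.

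The genes with the profile closest to the members' median were sought among 10135 other genes above the floor on all 4 arrays, by the Euclidean distance between log2 profiles centred on their own mean. The nearest was STRAP, at 0.01, which had signals of 2602 in the control, 1989 with MPA, 2561 with guanosine and 2605 with both. THAP11, RDH11, NMD3 and BCS1L followed, each at 0.01 to 0.02 and with MPA differences from the control between -0.39 and -0.37. The members themselves lay at 0.08 (EXOSC3) to 0.78 (EXOSC6) from their own median profile, and 331 other genes were closer to it than EXOSC3. A profile over 4 arrays with 1 low array is a common one, and these distances are given as a description.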

How the data were processed

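The authors deposited unlogged RMA intensity for each probe set, per the labels, which name the signal and the PrimeView array; the software and its settings are not given in the sources used. RMA makes the arrays alike in distribution, so a change in total mRNA per cell would not show. The log2 of each intensity was taken. Of 49395 probe sets, 44988 had 1 gene symbol, 1832 several, and 2569 were not listed; 102 control probe sets entered no gene. Entrez IDs matched a RefSeq gene table (GRCh38.p14) for 44961, and 0 symbols changed. A gene was its probe set with the highest mean, _x_at only where there was no other. A gene entered a comparison when its brighter array reached the floor, the median of non-control values (signal 63.0). Differences were counted at 1.5-fold and 2-fold, and the counting was tested on simulated data. The median signal of an array lay between 61.8 and 64.5. The number of arrays, 1 per condition, limits the precision.

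Every member was named, and of the partner and decay lists the highest and lowest members with MPA and up to 2 more of each (1 gene of these lists is not reported here), plus DIS3, DIS3L, MTREX and C1D. Of the comparison lists the extremes were named, with every subunit of POLR1 name, and the 5 genes nearest in profile. The members and lists were chosen with earlier results of these data known. Alternatives were the dim-gene filter, the probe set rule, cyclic loess (limma 3.58.1, 3 iterations), median centring, an offset of 32 and, chosen after seeing the data, guanosine as the control. Python 3.11.15 with pandas 2.3.3 and R 4.3.3 were used.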

Additional observations from a re-analysis of the deposited data

Results flagged for a closer look

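For 7 members the difference made by MPA had the opposite sign without and with guanosine, each value being 1 pair of arrays. The log2 values were -0.54 and 0.07 for EXOSC2, -0.56 and 0.02 for EXOSC4, -0.30 and 0.12 for EXOSC5, 0.51 and -0.01 for EXOSC6, -0.26 and 0.07 for EXOSC7, -0.64 and 0.03 for EXOSC8, and -0.95 and 0.0039 for EXOSC9. Signs were opposite in 50.8% of 10531 genes compared in both. The difference between the values was not tested. The values with guanosine lie close to 0: over all genes, that comparison had a log2 SD of 0.098, which only EXOSC5 exceeded.

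The probe set listed with EXOSC7 and another gene, which no comparison used, had a higher signal with MPA, 64.1 against 51.2 in the control, and 43.4 and 47.6 with guanosine and both. Only the MPA value reached the floor of 63.0.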

How the results depend on the processing

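In MPA against control, each member had the same sign under every alternative that gave it a value, 8 of them, or 7 for EXOSC3, which fell below the floor as a median of probe sets. Several of these could not have changed a sign. The filter settings leave a member's value as it is, and an offset keeps the sign of each probe set's difference. For the 4 members with 1 probe set, the probe set rules also change nothing. Their signs were open only to cyclic loess, median centring and the guanosine array as the control. EXOSC9 ranged from -0.98 to -0.78, EXOSC8 from -0.68 to -0.50 and EXOSC6 from 0.48 to 0.59. The members' median ranged from -0.41 to -0.31. With no replicates, a value was said to move when it shifted by more than 0.098, the log2 SD of both compounds against guanosine over all genes. Of the values followed, only EXOSC8 and EXOSC9 with MPA, and EXOSC9 with both compounds against MPA, were past 1.5-fold. None of these changed sign, and a count has no sign to change.

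After cyclic loess, 1 member (EXOSC6, 0.59) was at least 1.5-fold higher with MPA and 1 lower, EXOSC8 being at -0.57; against MPA alone, the median with both compounds was 0.27, 1 member was 1.5-fold lower, 0 partners were 1.5-fold higher, and 1 gene overall was 2-fold higher with guanosine. With median centring, 4 members were 1.5-fold higher with both than with MPA, and 1 gene was 2-fold higher with guanosine. With _x_at probe sets kept, EXOSC9 was at -0.78, 0 members were 1.5-fold higher with both than with MPA, and 0 genes were 2-fold lower with guanosine.

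As medians of probe sets, EXOSC1 was at 0.029 with MPA, its second probe set being below the floor. Of partners 2 were 1.5-fold lower with MPA, and against MPA alone both compounds had 2 members 1.5-fold higher and 1 lower by any amount. Over all genes, guanosine had 1 gene 2-fold higher and 0 lower, both compounds against control 2 genes 2-fold higher and 10 1.5-fold lower, and both against guanosine 4 1.5-fold lower. With the guanosine array as the control, EXOSC7 was at -0.16, EXOSC8 at -0.50 and EXOSC9 at -0.83, with 1 member and 2 partners 1.5-fold lower.

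The floor at the 75th percentile, which tests fewer genes, gave 356 genes 1.5-fold and 121 2-fold higher with MPA. It gave 21 genes 1.5-fold higher, 8 lower and 0 2-fold lower with guanosine. For both compounds it gave 22 1.5-fold higher and 10 lower against control, 289 1.5-fold lower, 113 2-fold higher and 110 2-fold lower against MPA, and 1 1.5-fold lower against guanosine. With no filter, both compounds had 29 genes 1.5-fold lower against control, and 1 higher and 6 lower against guanosine. With the offset, 81 genes were 2-fold lower and 0 partners 1.5-fold lower with MPA, and guanosine had 22 genes 1.5-fold higher and 0 2-fold lower. Both compounds then had 23 genes 1.5-fold higher and 10 lower against control, 84 2-fold higher and 1 partner 1.5-fold higher against MPA, and 1 gene 1.5-fold lower against guanosine. The causes were not tested. No paired analysis was possible because each condition has 1 array.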

Other observations

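Some subunit genes start close to a gene on the other strand. Within 1000 bases, RefSeq start sites placed ZDHHC3 head to head with EXOSC7, at 70 bases, and BCKDHA head to head with EXOSC5, at 459 bases. The antisense gene EXOSC10-AS1 has starts 150 and 194 bases from that of EXOSC10 and is not analysed here. ZDHHC3, a palmitoyltransferase, had signals of 520 in the control, 557 with MPA, 461 with guanosine and 449 with both, a log2 difference with MPA of 0.10. EXOSC7, on the other side of that start region, was at -0.26. BCKDHA, a subunit of the branched-chain keto acid dehydrogenase, had signals of 271 in the control, 321 with MPA, 276 with guanosine and 293 with both, a difference of 0.24. EXOSC5 was at -0.30. Both neighbours were thus on the opposite side of the control from the subunit gene, where 49.7% of all genes compared were lower with MPA. The 0.10 of ZDHHC3 is close to the log2 SD of 0.098 used above as the size of a shift. EXOSC1 and EXOSC4 had no start region analysed here, so their neighbours were not sought.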
